A study of Homo sapiens with 28 samples.

Results

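N6-methyladenosine (m6A) peaks on chromatin-associated RNA (caRNA) were compared between 2 human leukaemia lines, NB4 and K562, both carrying a control hairpin. The comparison rested on 5 immunoprecipitation (IP) libraries, NB4 Control (n = 3) and K562 Control (n = 2), out of 14 IP peak lists and 28 samples in the series. Peaks of the 5 lists on the 22 autosomes and X were merged per strand wherever they overlapped by 1 base, which gave 62916 merged regions. A region was called a K562 region if both K562 Control libraries and no NB4 Control library had a peak in it, and an NB4 region if all 3 NB4 Control libraries and no K562 Control library had one. There were 12876 K562 regions (20.5% of merged regions) and 6380 NB4 regions (10.1%). A further 11635 regions had a peak in all 5 libraries and are called shared, and the remaining 32025 met none of these definitions. The classes were set by the presence of peaks, so their counts are a description of the 5 lists.

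NB4 is an acute promyelocytic leukaemia line and K562 a myelogenous leukaemia line. In both groups the cells expressed RBFOX2 and carried a short hairpin RNA that does not target it, and chromatin was separated before RNA was extracted and depleted of ribosomal RNA. Libraries of 4 other groups served only outside the definitions, namely K562 WT (unmodified cells, n = 2), K562 RBFOX2 KD (hairpin against RBFOX2, n = 2), NB4 RBFOX2 KD (n = 3) and HepG2 WT (a liver cancer line, n = 2). Each leukaemia line stands for 1 patient's clone, so a difference between the lines cannot be told apart from a difference between erythroid-like and promyelocytic cells in general. The labels do not say whether replicates were separate cultures, and p-values measure only the spread between these libraries.

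m6A is deposited on nascent RNA by a nuclear methyltransferase complex around METTL3 and METTL14, mostly in the sequence context DRACH (D is A, G or T, R is A or G, H is A, C or T), and is bound by reader proteins such as YTHDC1 in the nucleus. In messenger RNA it is known for clustering near stop codons and in long internal exons. In caRNA it also marks promoter-associated RNA, introns and other transcripts that do not leave chromatin. A peak can be called only where RNA is transcribed, so the presence of a peak reflects the transcript as well as its methylation, and the 2 cannot be told apart from these lists. The lists come from bulk cells, in which fewer cells with a transcript and less RNA per cell cannot be told apart either.

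The strongest regions of each line are shown as sequence first. The 100 bases around the summit (the highest point of a peak) are shown for the 3 highest-ranked regions per line whose window lies outside untranslated regions (UTRs), because these are the strongest regions that only 1 of the 2 groups of Control libraries held. The AZU1 and PNPLA7 regions were also overlapped in 2 of the 4 K562 libraries outside the comparison. All are hg38 sequence of the transcribed strand, 5′ to 3′, with DRACH matches in capitals. The K562 windows held 2, 4 and 6 DRACH matches, and the NB4 windows 0, 2 and 3. None of them held GGACT, the DRACH form most often methylated. A match is a description of the letters and does not place the methylated base.
K562, no annotated gene, chr10:3318536-3318635, plus strand: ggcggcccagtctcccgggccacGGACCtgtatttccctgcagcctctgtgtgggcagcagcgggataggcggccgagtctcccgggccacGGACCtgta
K562, ENSG00000290113 exon 1, chr2:126308227-126308326, minus strand: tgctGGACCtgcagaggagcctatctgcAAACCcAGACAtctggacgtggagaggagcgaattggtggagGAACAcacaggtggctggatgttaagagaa
K562, upstream of TNNT1, chr19:55150058-55150157, minus strand: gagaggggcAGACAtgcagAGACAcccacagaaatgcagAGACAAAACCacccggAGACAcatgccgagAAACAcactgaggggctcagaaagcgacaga
NB4, AZU1 intron 2, chr19:828751-828850, plus strand: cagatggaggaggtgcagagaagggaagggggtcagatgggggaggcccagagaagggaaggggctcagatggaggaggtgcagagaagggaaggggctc
NB4, PNPLA7 intron 11, chr9:137517566-137517665, minus strand: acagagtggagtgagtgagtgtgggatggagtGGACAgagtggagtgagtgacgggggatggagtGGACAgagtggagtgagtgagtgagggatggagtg
NB4, antisense to a gene, chr7:157559302-157559401, plus strand: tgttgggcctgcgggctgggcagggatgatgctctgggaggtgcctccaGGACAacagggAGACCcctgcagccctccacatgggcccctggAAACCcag

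Of the best regions of lineage markers, 3 of 12 in K562 and 3 of 13 in NB4 had GGACT within 50 bases of the summit. The 29-base windows were chosen after their values were seen, for holding that motif, and GGACT is in capitals. KLF1 and TAL1, transcription factors of the erythroid lineage, had these sites beside their stop codons, 5 and 17 bases from the summit. CEBPA and GFI1, transcription factors of granulocyte development, had them 4 and 2 bases from the summit. The CEBPA summit lay in exon 1 of 1 of CEBPA, on the strand of that gene. It was counted as antisense promoter only because the promoter window of a transcript on the other strand takes priority over exons. The GFI1 summit lay in the promoter window.
K562, KLF1, chr19:12884742-12884770, minus strand: ggaccctctcctGGACTcgcgttcccaaa
K562, TAL1, chr1:47219597-47219625, minus strand: aagcaaggcggtGGACTtgaactttcctg
NB4, CEBPA, chr19:33301151-33301179, minus strand: ttcctctgcgccGGACTtggtgcgtctaa
NB4, GFI1, chr1:92485008-92485036, minus strand: ccaaggcctgtaGGACTcgtttgagctga

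The peak lists matched the labelled lines. Of 27 erythroid markers, 17 and 18 held a summit in the K562 Control libraries and 4 to 6 in the NB4 Control libraries. Of 33 promyelocyte and granulocyte markers, 19 to 21 held one in NB4 Control and 4 and 6 in K562 Control. No hepatocyte marker held a summit in any of the 5 lists, against 4 and 7 of 10 in HepG2. The NB4 lists were smaller and narrower, with 29511, 31899 and 33400 peaks of a median width of 243 to 249 bases, against 36844 and 38468 peaks of 312 and 343 bases. The peaks covered 9622 to 11266 kb in NB4 and 16360 and 19470 kb in K562, a log2 difference (NB4 minus K562) of -0.76 with no overlap between the groups (exact permutation test, two-sided, p = 0.1, the smallest p that 3 against 2 libraries allow). Effective reads, the depth recovered from the background of each list, were 10.8, 14.1 and 17.2 M in NB4 and 14.8 and 19.5 M in K562, so the groups overlapped in depth. The local background exceeded the genome-wide one at 56.4% to 58.5% of summits in NB4 and at 28.3% and 30.4% in K562, and its part in the results below was not tested.

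The lists of the 2 lines differed in where their summits lay, with higher intergenic shares in both K562 libraries and higher coding exon and stop codon shares in all 3 NB4 libraries. Intergenic summits made up 3.73% ± 0.339 (SD, n = 3) of NB4 summits and 6.80% ± 0.998 (SD, n = 2) of K562 summits, a difference of -3.07 percentage points with no overlap (p = 0.1 in the exact two-sided permutation test, 0.22 after Benjamini-Hochberg adjustment over 11 gene parts). Summits in coding exons made up 14.4% ± 0.657 in NB4 and 11.8% ± 0.839 in K562, and summits within 200 bases of a stop codon 9.91% ± 0.350 and 8.65% ± 0.0647. Both differences, of 2.60 and 1.26 points, were without overlap at the same smallest p of 0.1 in the exact permutation test. Promoters on the sense strand (1 kb upstream to 100 bases downstream of a transcript start) held 18.7%, 17.9% and 16.0% of summits in NB4 and 14.3% and 14.97% in K562. The groups did not overlap there, but the exact permutation p was 0.2, so another grouping of the 5 libraries separated them as far. Noncoding exons held 5.77% ± 0.163 in NB4 and 6.66% ± 0.249 in K562, again without overlap (exact permutation p = 0.1). The share in introns was 25.3%, 27.0% and 31.0% in NB4 and 30.8% and 30.3% in K562. The third NB4 library lay above both K562 libraries there, and the groups overlapped. No part passed an adjusted p of 0.05, which a design of 3 against 2 libraries cannot reach. NB4 Control 3 was also the library in which the recovered read pileups were seldom whole numbers, at 3.57% of summits against 100% in the other 4, and it had the lowest promoter share of the NB4 libraries.

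**Figure D1:**
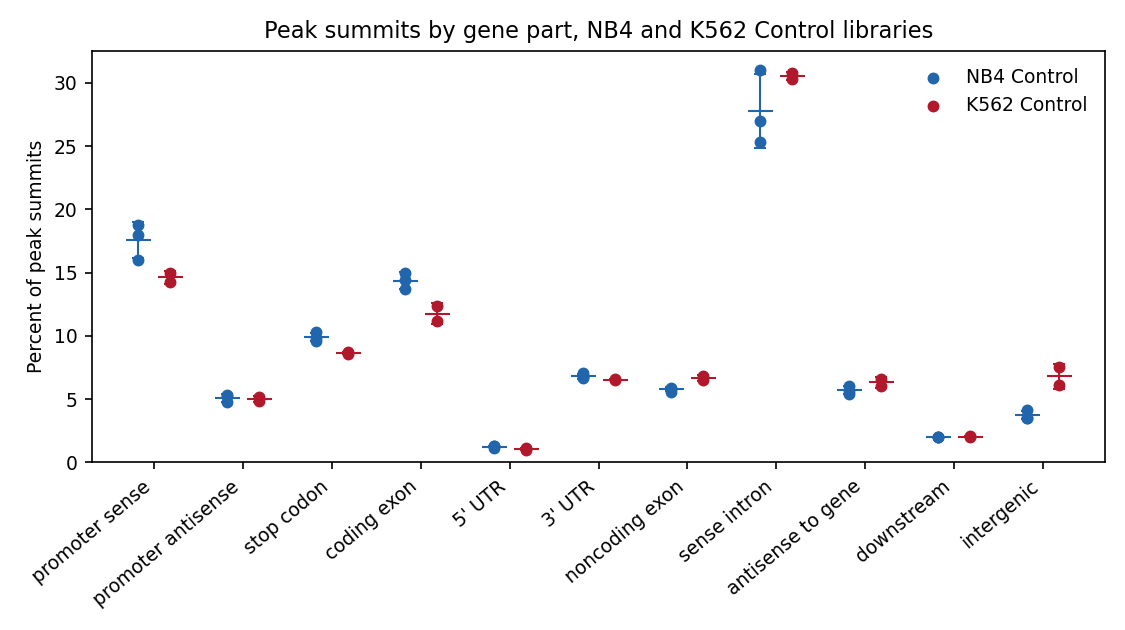
Percent of peak summits (vertical axis) in each of 11 gene parts (horizontal axis) for the 3 NB4 Control and 2 K562 Control libraries, with the mean and SD of each group. Intergenic summits sit lower in all 3 NB4 libraries than in both K562 libraries, coding exon and stop codon summits sit higher, and the intron points of the groups overlap.

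The same split by gene part held for the regions found in 1 line only. Of the merged regions in intergenic sequence, 33.9% were K562 regions, 9.63% NB4 regions and 3.66% shared, against 20.5% and 10.1% over all merged regions. Around stop codons the shares were 13.3%, 9.01% and 42.9%, and in coding exons 13.5%, 7.62% and 38.7%. In both parts the K562 and the NB4 shares lay below those over all merged regions. Shared regions outnumbered the regions of the 2 lines together in both parts, and in intergenic sequence they were the rarest class. Introns were 22.9% K562 and 10.3% NB4, and noncoding exons 25.2% and 9.17%. K562 regions outnumbered NB4 regions in each of the 11 parts, with sense promoters closest at 14.9% against 11.1%. The definitions asked for 2 K562 but 3 NB4 libraries, and the K562 lists were longer, so these counts are not on equal terms. When 2 libraries of the line sufficed there were 12876 K562 and 10741 NB4 regions, and with lists of equal size 9315 and 6504. By class, introns held 39.0% of K562 regions and 35.3% of NB4 regions, and promoters on the sense strand 10.9% and 16.5%.

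**Figure D2:**
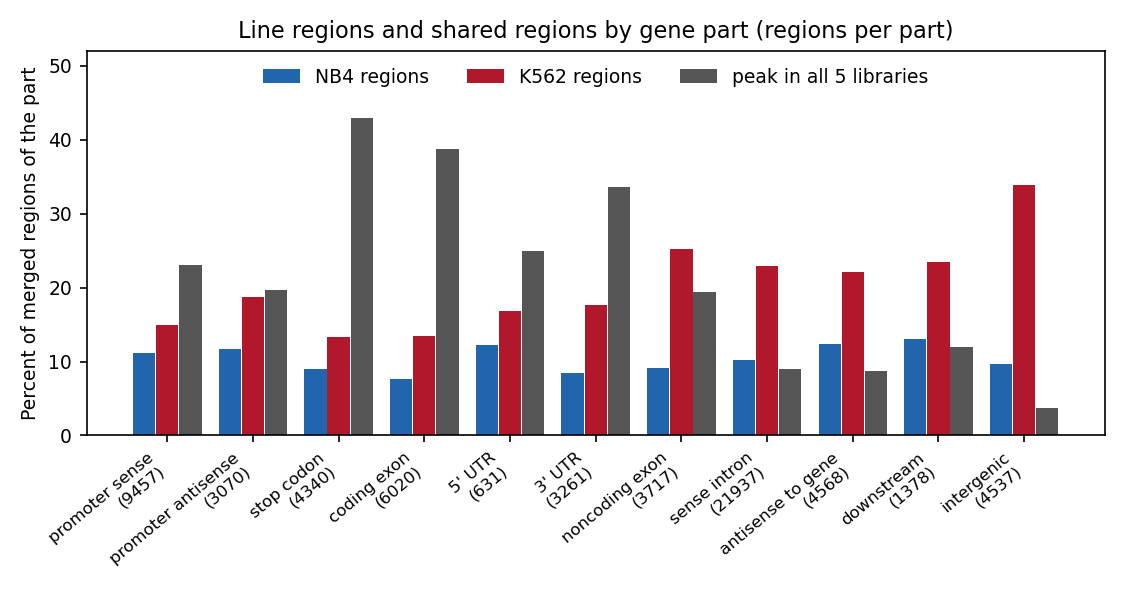
Percent of the merged regions of each gene part (vertical axis) that were K562 regions, NB4 regions or shared by all 5 libraries, for 11 gene parts (horizontal axis). Shared regions reach 42.9% around stop codons and 3.66% in intergenic sequence, where K562 regions reach 33.9%.

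Regions of 1 line were narrower and weaker than shared ones. Strength was read as a percentile rank, in which the peaks of a list are ordered by their -log10 q (the significance that the peak caller gave, column 9) and the strongest peak stands at 100. The median percentile was 45.4 for K562 regions, 52.6 for NB4 regions and 70.5 for shared regions, with median widths of 382, 314 and 707 bases. A mean percentile of 90 or more was reached by 539 K562 regions (4.19%), 426 NB4 regions (6.68%) and 1963 shared regions (16.9%). Shared regions are wider partly by construction, since merging over 5 lists joins peaks. Their higher rank is not independent of the definitions either, since a weak peak is more easily missed in 1 of the lists. The ranks of the classes are therefore a description. The K562 share of merged regions ran from 12.8% on chromosome 20 to 26.3% on X, and the NB4 share from 5.79% on chromosome 3 to 14.8% on chromosome 20.

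Libraries that the definitions did not use found the regions again in their own line. K562 regions were overlapped by a peak in 78.0% and 77.3% of cases in the K562 WT libraries and in 92.7% and 85.3% in the K562 RBFOX2 KD libraries. The NB4 RBFOX2 KD libraries overlapped 10.1%, 7.71% and 9.85% of them. The 4 K562 libraries were all above the 3 NB4 libraries, at 83.3% ± 7.22 (SD, n = 4) against 9.21% ± 1.30 (SD, n = 3), and the difference of 74.1 points had an exact permutation p of 0.0286 (two-sided), the smallest that 4 against 3 allow. NB4 regions were overlapped at 92.3%, 90.7% and 89.0% in the NB4 RBFOX2 KD libraries. In the K562 libraries they were overlapped at 26.6% and 25.2% in WT and at 3.71% and 2.26% in RBFOX2 KD. Here too the groups did not overlap, at 14.4% ± 13.2 against 90.7% ± 1.68, a difference of -76.2 points (exact permutation test, two-sided, p = 0.0286). The K562 WT libraries, the deepest of that line with 25.6 and 24.9 M effective reads, thus overlapped the NB4 regions more often than the K562 RBFOX2 KD libraries, which carry a hairpin as the Control libraries do and had 16.4 and 12.6 M. Depth and hairpin cannot be told apart here. HepG2 overlapped 15.6% and 18.5% of K562 regions and 18.7% and 22.2% of NB4 regions, and 71.7% and 77.0% of shared regions.

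**Figure D3:**
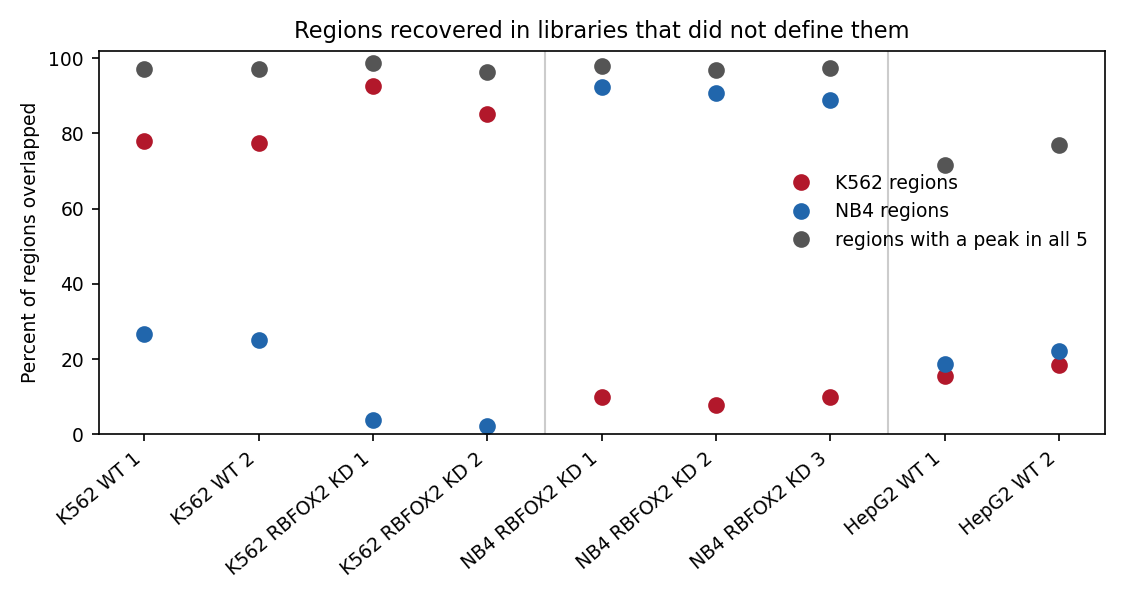
Percent of K562 regions, NB4 regions and shared regions (vertical axis) overlapped by a peak in each of 9 libraries outside the definitions (horizontal axis). K562 regions reach 77.3% to 92.7% in K562 libraries and 7.71% to 10.1% in NB4 libraries, and NB4 regions 89.0% to 92.3% in NB4 libraries and 2.26% to 26.6% in K562 libraries.

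Counting a region as repeated only when every outside library of its own line and none of the other line overlapped it, 7152 K562 regions (55.5%) and 3629 NB4 regions (56.9%) were repeated. Intergenic regions were repeated most often, at 72.4% of 1536 in K562 and 72.3% of 437 in NB4. Sense promoter regions were repeated at 47.4% of 1407 and 46.2% of 1051. In K562 the lowest share was in 3′ UTRs, at 42.8% of 575.

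GGACT, the leading m6A motif, was more frequent at summits than beside them in all 5 libraries, most of all in K562 Control 1. GGACT within 75 bases of the summit was found at 29.1% and 24.8% of K562 summits and at 25.1%, 24.2% and 23.9% of NB4 summits, so the groups overlapped in this share. Taken as the excess over windows 300 bases to either side, it was 17.2 and 12.6 points in K562 and 12.3, 11.3 and 11.6 points in NB4. In the excess the groups did not overlap (difference -3.17 points, exact permutation test, two-sided, p = 0.1). The size of the difference rested on K562 Control 1, since without that library it was -0.83 points and without K562 Control 2 it was -5.50. The DRACH excess averaged 3.87 points over the NB4 libraries and 5.09 over the K562 libraries (exact permutation p = 0.1). Among the region classes, GGACT was at the summit of 28.4% of K562 regions, 22.1% of NB4 regions and 29.2% of shared regions, with 11.6%, 12.5% and 13.0% in the flanking windows.

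At the level of genes, 13826 had a summit in at least 1 of the 5 libraries on their own strand, within the gene or 1 kb upstream. K562 genes, with a summit in both K562 Control libraries and in no NB4 Control library, numbered 2156 (15.6%). NB4 genes numbered 1325 (9.58%), and 6660 had a summit in all 5 libraries. Here too the definitions asked for 2 K562 but 3 NB4 libraries, and lists of equal size gave 1721 K562 and 1495 NB4 genes. Long noncoding RNA (lncRNA) genes were K562 genes in 698 of 2436 cases (28.7%) and NB4 genes in 246 (10.1%), against 1312 (12.2%) and 987 (9.14%) of 10797 protein-coding genes. Of 9777 K562 regions within genes, 4664 (47.7%) lay in K562 genes and 4187 (42.8%) in genes with summits in all 5 libraries. Of 5052 NB4 regions within genes, 2340 (46.3%) lay in NB4 genes and 2455 (48.6%) in genes with summits in all 5. In the libraries outside the definition, 1421 K562 genes (65.9%) had a summit in all 4 K562 libraries and in no NB4 library, and 757 NB4 genes (57.1%) in all 3 NB4 libraries and in no K562 library.

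Genes of the erythroid programme carried peaks in K562. Of the 27 listed erythroid markers, 18 had a summit in any of the 5 libraries, 11 were K562 genes and 0 were NB4 genes, against 15.6% and 9.58% of all genes with a summit. KLF1, a regulator of globin genes, had its best peak at a percentile of 99.9 in both K562 Control libraries and at 99.6 to 99.9 in the 4 outside K562 libraries, with no summit in any of the 6 NB4 libraries. Its region lay at chr19:12884298-12886627 on the minus strand, around the stop codon in exon 3 of 3, and rose to 58.1-fold and 45.8-fold over background. TAL1, a factor at the head of the erythroid programme, stood at 99.6 and 98.4, the blood group protein KEL at 91.3 and 97.8, the glycophorin GYPE at 91.5 and 85.7 and the embryonic globin HBE1 at 90.7 and 85.9. That HBE1 region (chr11:5292846-5293560, minus strand) was intronic and lay outside the canonical transcript, within the longer annotated span of the gene. It is thus not a peak on the globin messenger RNA itself. A weaker peak was on the ammonium channel protein RHAG at 40.8 and 39.9. The fetal globin HBG1 was near the bottom of both lists at 2.70 and 0.0156, and shares near-identical sequence with HBG2, which had no summit in these 5 libraries and 1 in K562 WT 2. No summit was found on HBZ, HBA1, HBA2, GYPB, ALAS2, EPB42, SLC4A1 or RHD in any of the 5 libraries.

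GATA1, the master factor of the erythroid lineage, stood at 77.6 and 59.8 in K562 Control and had no summit in NB4 Control. The repressor GFI1B stood at 89.3 and 91.5. Both were in the 3 NB4 RBFOX2 KD lists as well, GATA1 at 12.6, 23.4 and 2.57 and GFI1B at 12.6, 55.0 and 2.57. Their absence from NB4 Control was thus not repeated in the outside libraries of that line, although the percentiles there were lower than in all 6 K562 libraries. NFE2, LMO2, EPOR and TFRC held summits in all 5 libraries. EPOR, the erythropoietin receptor, stood at 96.8 and 95.3 in K562 Control and at 22.5, 42.2 and 32.0 in NB4 Control.

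Genes of the promyelocyte and granulocyte programme mirrored this in NB4, where 12 of 33 markers were NB4 genes and 0 were K562 genes, of 21 with a summit in any library, against 9.58% and 15.6% of all genes. AZU1, an azurophil granule protein, held the strongest peak of all 3 NB4 Control lists, at a percentile of 100 and at 68.2-fold, 58.5-fold and 31.3-fold over background in intron 2 of 4 (chr19:828439-829574, plus strand). It was also in both K562 WT lists, at 81.3 and 83.8. CEBPE, a factor of granule gene expression, stood at 98.4, 95.4 and 88.9 and CEBPA at 86.5, 94.2 and 74.1, with no summit in any of the 6 K562 libraries. Of the receptors, CSF3R stood at 93.0, 96.4 and 96.6 and CSF2RA at 92.8, 93.6 and 99.2, and CSF3R was again in both K562 WT lists, at 37.7 and 10.5. CSF2RA lies in the pseudoautosomal region, where reads can be shared with the other copy. The granule proteins PRTN3 (44.8, 89.5 and 96.9) and MPO (74.9, 58.0 and 1.47) varied widely between the 3 NB4 libraries. ELANE, LYZ, S100A8 and S100A9 had no summit in any of the 5 libraries, and CD33, CEBPB, SPI1 and CYBA had summits in all 5. CYBA went the other way in rank. Its shared region stood at 99.2 and 98.5 in K562 Control and at 87.8, 90.7 and 90.5 in NB4 Control.

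**Figure D4:**
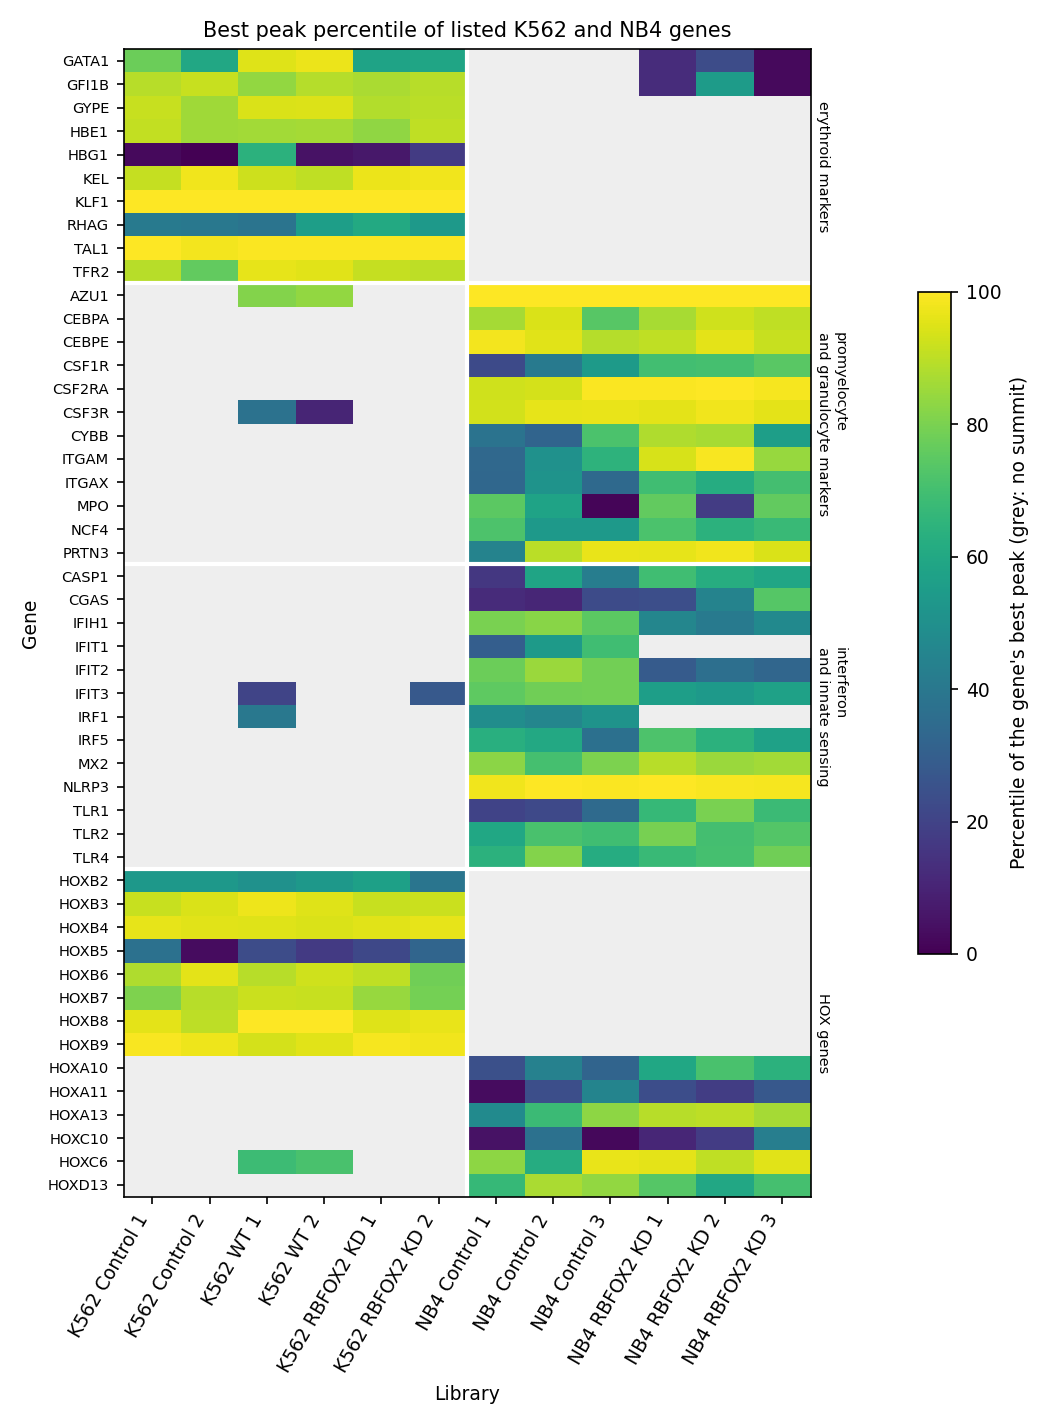
Percentile of the best peak (colour, 0 to 100, grey where no summit was found) of listed erythroid, promyelocyte and granulocyte, interferon and HOX genes (rows) drawn from the K562 and NB4 genes, in 6 K562 and 6 NB4 libraries (columns). Erythroid and HOXB genes are filled in the K562 columns, and granulocyte, interferon and HOXA genes in the NB4 columns, with AZU1 and CSF3R also filled in the K562 WT columns and GATA1 and GFI1B in the NB4 RBFOX2 KD columns.

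Genes of interferon response and innate sensing were marked in NB4. Of 31 listed genes, 24 had a summit, of which 14 were NB4 genes, 0 were K562 genes and 8 were in all 5 libraries. Over all genes with a summit, 9.58% were NB4 genes, 15.6% were K562 genes and 6660 of 13826 were in all 5. NLRP3, the sensor of an inflammasome, was the strongest at 97.9, 99.6 and 99.5. The interferon-induced genes IFIT2 (77.5, 84.8 and 78.9) and MX2 (82.5, 70.5 and 80.2) and the RNA sensor IFIH1 (79.9, 82.2 and 74.99) followed, and the toll-like receptors TLR1, TLR2 and TLR4 were among the 14. All except IRF1 and IFIT1 had a summit in all 3 NB4 RBFOX2 KD libraries. IRF1 (49.1, 46.0 and 51.4) and IFIT1 (29.8, 54.5 and 69.2) had none there. IRF1 and IFIT3 also had a summit in 1 and 2 of the 4 outside K562 libraries, and with 1 further gene found in an outside K562 library, 10 of the 14 were repeated. In antigen presentation, NLRC5, an activator of class I genes, carried 12, 14 and 15 peaks in NB4 Control and stood at 94.4, 97.6 and 95.9. HLA-B, whose reads can be shared with other class I genes, stood at 37.6, 1.01 and 2.72.

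HOX genes, which set positional identity and are active in stem and progenitor cells, divided by cluster. Of 39 listed, 18 had a summit, 8 were K562 genes (44.4%, against 15.6% of all genes) and 6 were NB4 genes (33.3%, against 9.58%). The K562 genes were HOXB2 to HOXB9, with HOXB9 at 98.9 and 97.4 and HOXB4 at 96.1 and 95.7, and all 8 were repeated in the outside libraries. The NB4 genes were HOXA10, HOXA11 and HOXA13, HOXC6 and HOXC10, and HOXD13, which stood at 67.0, 87.2 and 83.6. HOXC6 was also in 2 of the outside K562 libraries. HOXC8 and HOXC9 were in all 5 libraries, and their stop codon regions ranked in opposite orders. HOXC8 was at 92.9, 95.1 and 98.6 in NB4 and 72.8 and 79.0 in K562, and HOXC9 at 44.3, 65.0 and 57.0 against 95.3 and 97.5.

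TGF-beta signalling, which restrains growth of many blood cells, held 7 K562 genes (25%, against 15.6% of all genes) and 2 NB4 genes (7.14%, against 9.58%) among 28 with a summit. Another 14 were in all 5 libraries, against 6660 of 13826 over all genes. Among the K562 genes, LTBP1, which anchors latent TGF-beta in the matrix, stood at 86.4 and 92.0 with 13 and 8 peaks, LTBP3 at 33.2 and 32.1 and LTBP4 at 39.5 and 53.0. The receptor ACVR1 stood at 87.9 and 94.2, ACVR2A at 51.9 and 51.3, and the ligand TGFB3 at 29.8 and 40.4. The target gene ID1 (14.2 and 12.8) was found in only 1 of the 4 outside K562 libraries. In NB4, the receptor TGFBR2 stood at 95.8, 95.7 and 94.4 but was in 3 of the 4 outside K562 libraries, and the ligand INHBA (76.8, 63.1 and 56.9) was in none of the NB4 RBFOX2 KD libraries. Thus 6 of 7 K562 genes and 0 of 2 NB4 genes were repeated.

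Of 16 haem and iron genes with a summit, 4 were K562 genes (25%, against 15.6% of all genes), 0 were NB4 genes and 7 were in all 5 libraries. The K562 genes were the iron exporter SLC40A1 (97.8 and 96.8), the receptor TFR2 (89.4 and 76.1), the haem enzyme UROD (76.4 and 75.5) and the iron transporter SLC11A2 (53.5 and 69.9), of which UROD was also in 1 and SLC11A2 in all 3 of the NB4 RBFOX2 KD libraries, so 2 of the 4 were repeated. Retinoic acid signalling held 3 K562 genes of 10 (30%) and 0 NB4 genes, the retinal dehydrogenase ALDH1A2 (99.6 and 97.5), TGM2 (71.5 and 57.7) and the receptor RARB (2.30 and 40.1), which was in only 1 outside K562 library. Among leukaemia drivers, 24 of 32 with a summit were in all 5 libraries, against 6660 of 13826 over all genes. Their shares of K562 genes (3.13%) and NB4 genes (6.25%) were below the 15.6% and 9.58% over all genes. MECOM (82.5 and 90.9) was a K562 gene, and CEBPA was among the 2 NB4 genes. Among SOCS and JAK-STAT genes, SOCS3 (68.1 and 71.1) and PIM1 (70.0 and 54.2) were K562 genes and 15 of 22 were in all 5. The shares of K562 genes (9.09%) and NB4 genes (4.55%) in this list were also below those over all genes. Of megakaryocyte markers, TUBB1 was a K562 gene and FLI1 (81.5, 77.7 and 76.1) an NB4 gene, and of lymphoid markers CD79B (16.0, 18.1 and 2.35) was an NB4 gene that was missing from 1 of the NB4 RBFOX2 KD libraries.

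Genes of the m6A machinery did not divide in this way. Of 23 listed writers, erasers and readers of m6A, all 23 had a summit, 22 in all 5 libraries. None was a K562 or an NB4 gene, against 15.6% and 9.58% of all genes. Over all genes with a summit, 6660 of 13826 had one in all 5 libraries. Of 11 genes of PRC2, the complex that methylates histone H3 at lysine 27, 9 were in all 5 libraries. The others, RBBP4 (26.4, 37.1 and 14.7) and PHF1 (60.3, 33.7 and 41.4), were NB4 genes (18.2%, against 9.58% of all genes), and 0 were K562 genes.

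The 12 strongest K562 genes that were repeated in every outside library of the line and in none of the other were POTEI, KLF1, ENSG00000290113, TNNT1, RNF217, BTNL9, RADIL, NALF1, TSIX, MUC19, TRPS1 and COL6A5, with mean percentiles of 99.5 to 99.95. POTEI belongs to a family of near-identical copies, so its reads may come from another member. COL6A5, a collagen chain, carried 14 and 13 peaks. TNNT1, a troponin, was at 99.8 and 99.99 in K562 Control and at 69.7 and 69.4 in K562 WT. The 12 NB4 genes were ENSG00000287763, JAG1, SYNPO2, PTPRN2, SIRPA, PLEKHG3, NLRC3, P2RY8, MIR646HG, ZBTB16, TRPM2 and CELSR1, with mean percentiles of 99.1 to 99.9. JAG1, a Notch ligand, was at 99.6, 99.7 and 99.8. SIRPA, an inhibitory receptor of myeloid cells, was at 99.5, 99.6 and 99.2, and ZBTB16, another fusion partner of RARA in promyelocytic leukaemia, at 98.98, 99.8 and 98.8.

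Some line regions lay in long runs over single genes, chosen here for their number. PTPRN2, a phosphatase-like receptor gene of 1049 kb, carried 49, 54 and 50 peaks in NB4 Control and 0 in K562 Control, and 41 of its 57 merged regions were NB4 regions, all 41 of them repeated. MIR646HG, a lncRNA of 566.1 kb, carried 53, 53 and 58 peaks with 40 NB4 regions. COL23A1 carried 38, 49 and 41 peaks in NB4 and 1 and 1 in K562. In K562, ADGRV1, an adhesion receptor gene of 635.1 kb, carried 38 and 39 peaks and 0 in NB4 with 32 K562 regions. ZC3H12B had 40 and 37 peaks in K562 against 1, 1 and 1 in NB4, and the lncRNA LINC00534 32 and 35 against 0. Of the line regions, 39 of 41 in PTPRN2 and 17 of 32 in ADGRV1 were intronic.

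The strongest K562 region was at chr10:3317905-3319562 on the plus strand, outside any annotated gene, at 63.0-fold and 46.5-fold over background. Among the strongest of NB4 were also 2 regions with no gene on their own strand, both antisense to a gene. They lay at chr7:157558499-157560296 on the plus strand (44.4-fold, 41.0-fold and 36.1-fold), opposite to PTPRN2, and at chr5:393935-394818 on the minus strand (34.7-fold, 14.5-fold and 16.8-fold). PNPLA7, a lysophospholipase gene with summits in all 5 libraries, held an NB4 region in intron 11 of 34 at 41.8-fold, 21.2-fold and 22.96-fold. These values chose the regions and are given without a test.

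Among the 11635 shared regions, presence did not differ by definition, so the rank of their peaks was tested (limma on normal scores of the rank among shared regions, Benjamini-Hochberg over all 11635, adjusted p under 0.05). A score difference of 1 is a shift by 1 SD of a normal distribution. The rank was higher in NB4 for 1766 regions (15.2%), higher in K562 for 1679 (14.4%) and not called for 8190. In the 7 leukaemia libraries outside the comparison, of 1498 regions called higher in NB4 and measured there, 1386 (92.5%) had the same direction and 856 (57.1%) passed the same test. Of 1581 called higher in K562, 1506 (95.3%) had the same direction and 903 (57.1%) passed. The opposite direction passed for 4 and 2 regions. Of the 7309 measured regions that were not called, 50.2% had the same direction. In the outside libraries 803 of these passed in the same direction and 767 in the opposite one. Over all 10388 regions measured there, 1625 (15.6%) passed as higher in NB4 and 1710 (16.5%) as higher in K562.

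**Figure D5:**
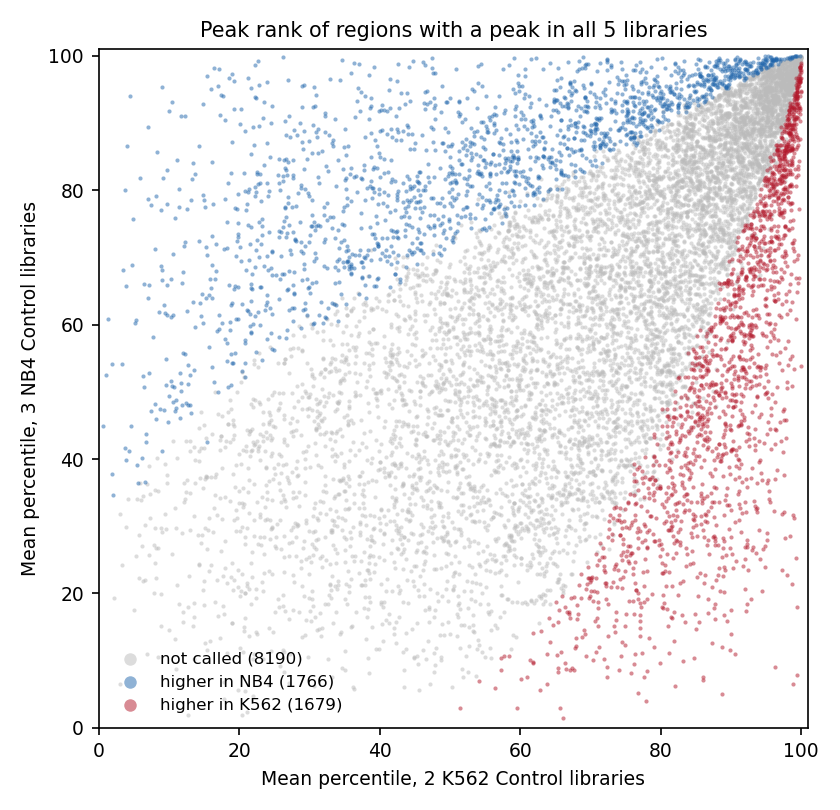
Mean percentile of each of the 11635 shared regions in K562 Control (horizontal axis, 0 to 100) and NB4 Control (vertical axis, 0 to 100), coloured by the limma call. The 1766 regions called higher in NB4 lie above the diagonal and the 1679 called higher in K562 below it.

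The strongest shifts took regions from the top of 1 list to the lower part of the other. The coding exon 1 of FBXW4, an F-box protein gene (chr10:101694655-101695179, minus strand), stood at 47.1-fold, 29.9-fold and 37.0-fold in NB4 and at 5.24-fold and 5.23-fold in K562. Its percentiles were 99.9, 99.8 and 99.98 against 22.3 and 30.04, a score difference of 4.52 (limma). The stop codon region of FZD7, a Wnt receptor (chr2:202036184-202036885, plus strand), stood at 31.1-fold, 28.1-fold and 25.4-fold against 4.71-fold and 5.13-fold, a score difference of 3.79. SCART1, COL23A1, SNHG29, KANK1, EEPD1, TBC1D10C, ENSG00000214719 and MAPK7 were the other named regions higher in NB4. In the K562 direction, a promoter region of GSE1, a chromatin regulator (chr16:85169615-85172227, plus strand), was at 50.4-fold and 24.8-fold in K562 and at 4.21-fold, 4.49-fold and 3.25-fold in NB4, a score difference of -4.38. STAT5B, a transcription factor downstream of cytokine receptors, had a region in intron 1 (chr17:42264378-42265845, minus strand) at percentiles of 99.3 and 98.4 in K562 and 22.5, 26.4 and 46.2 in NB4, a score difference of -3.04. ENSG00000272405, SCAP, BMP2K, PXN, MAP1A, CDC42BPA, ZNF239 and ATP7A completed the 10. In each of the 20 regions the fold values of the groups did not overlap. The regions were chosen by the smallest p in these libraries, and fold comes from the same peaks, so this is a description. Some of the 20, FBXW4 and GSE1 among them, were not measured in the outside libraries. The GSE1 region had a peak in 4 outside K562 and 0 outside NB4 libraries. Those of the 20 that were measured there passed in the same direction.

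By gene part, regions antisense to a gene were higher in NB4 for 20.1% and in K562 for 8.04% of 398, and antisense promoters for 18.9% and 10.3% of 603, against 15.2% and 14.4% of all shared regions. Introns went the other way, at 12.6% and 20.03% of 1962, and coding exons at 12.2% and 16.6% of 2330. The shares are counts over regions and carry no test of their own.

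The listed genes held called regions as well, to be read against 15.2% higher in NB4 and 14.4% higher in K562 over all shared regions. Of 38 shared regions of m6A writers, erasers and readers, 7 were higher in K562 (in CBLL1, ELAVL1, IGF2BP3, VIRMA, YTHDC2, YTHDF3 and ZC3H13), of which CBLL1, IGF2BP3 and VIRMA passed in the outside libraries, and 1 in NB4 (in YTHDC1, which passed there), with a median score difference of -0.30 against -0.04 over all shared regions. TGF-beta signalling had 7 of 26 higher in NB4 and 1 higher in K562 (median 0.17), and retinoic acid signalling 5 of 13 higher in NB4, among them regions of RARA and RXRA, and 0 in K562 (median 0.37). PRC2 genes had 4 of 15 higher in NB4, in AEBP2, EED and RBBP7, and 0 in K562 (median 0.15). SOCS and JAK-STAT genes had 7 of 22 higher in K562 and 2 in NB4 (median -0.51). Leukaemia drivers had 10 of 45 higher in NB4 and 6 in K562 (median -0.08). Promyelocyte and granulocyte markers had 0 of 4 higher in NB4 and 1 higher in K562 (median 0.69). That region, in CYBA, did not pass in the outside libraries (limma adjusted p = 0.71). In all, 55 regions of listed genes were called, and 16 of them kept the call under every alternative setting tried. These included the stop codon region of EPOR (-2.39 ± 0.29 SE, limma adjusted p = 5.24e-05), the 3′ UTR region of RXRA (2.77 ± 0.28, limma adjusted p = 1.08e-05), and regions of HOXC9, PIAS1, STAT5B, TGFB1 and WT1. Of the 16, 13 were measured in the outside libraries and these 7 passed there. Regions of SMAD3 (1.12) and SMAD7 (-0.0022) were among those that did not pass there, and RUNX1, SOCS7 and another SMAD7 region were not measured there. In the outside libraries EPOR was at -2.84 and RXRA at 3.48, both in the same direction (limma adjusted p = 2.1e-05 and 2.9e-05). ELAVL1 and ZC3H13, at -1.98 and -1.54 in the Control libraries, were at -0.19 and -0.23 in the outside libraries and did not pass there (limma adjusted p = 0.70 and 0.53).

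The genes that the study follows carried peaks in all 5 libraries. TGFB1, the ligand of the pathway, had 9, 8 and 8 peaks in NB4 and 5 and 6 in K562, with its best peak at 97.5, 99.1 and 99.6 against 94.7 and 95.3. One of its regions, in an intron (chr19:41331725-41332232, minus strand), stood at 97.5, 98.6 and 99.6 in NB4 and at 34.5 and 58.4 in K562, a score difference of 2.94 ± 0.283 (SE, limma adjusted p = 7.03e-06). In the outside libraries the difference was 2.91 (limma adjusted p = 0.0055). The promoter region of TGFB1 (chr19:41351839-41353913, minus strand) was also called higher in NB4, at 0.698 ± 0.248 (SE, limma adjusted p = 0.0447). It lost that call in 7 alternative settings and did not pass in the outside libraries, at 0.447 (limma adjusted p = 0.153). RBFOX2 had 1, 2 and 2 peaks in NB4 and 3 and 2 in K562, with overlapping percentiles of 72.2, 20.1 and 20.8 against 58.7 and 64.2. The reader YTHDC1 stood at 97.4, 98.6 and 93.8 against 81.1 and 86.3, with no overlap, and RBM15, which recruits the methyltransferase, at 98.0, 93.9 and 93.8 against 98.7 and 99.2. The methyltransferase subunits METTL3 (77.6, 82.5 and 62.3 against 87.7 and 83.6) and METTL14 (93.2, 87.0 and 82.5 against 82.4 and 91.6) followed, and of these METTL14 overlapped between the lines. In the outside libraries METTL3 stood at 77.0 to 90.9 in NB4 RBFOX2 KD and 81.9 to 89.7 in K562. RBM15 stood there at 93.0 to 97.9 and 94.7 to 99.1, so both genes overlapped. YTHDC1 did not overlap there, at 97.4 to 99.2 against 80.8 to 89.6.

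Of the PRC2 subunits, EED was near the top in both lines, at 99.8, 99.8 and 99.3 in NB4 and 98.5 and 98.2 in K562. EZH2 stood at 19.9, 23.6 and 50.1 against 65.9 and 41.5, and SUZ12 at 34.7, 44.3 and 71.3 against 59.5 and 77.8, and both overlapped between the lines. The partners of the fusion genes of the lines were in all 5 libraries too. BCR stood at 96.4, 96.8 and 98.9 in NB4 and 99.5 and 99.3 in K562, and ABL1 at 90.6, 91.5 and 87.6 against 93.3 and 95.6. PML stood at 77.1, 81.7 and 69.8 against 72.3 and 76.6, and RARA at 94.9, 98.1 and 98.3 against 91.4 and 87.7. BCR and ABL1, joined in K562, ranked higher in both K562 Control libraries than in the 3 NB4 Control libraries, but none of their shared regions was called. In the outside libraries ABL1 stood at 96.0, 93.2 and 96.0 in NB4 RBFOX2 KD and at 84.3 to 93.2 in the 4 K562 libraries, and BCR at 99.9, 99.6 and 98.9 against 98.5 to 99.3, so that order was not found again. RARA ranked higher in the 3 NB4 Control libraries, and PML overlapped. In the outside libraries RARA stood at 94.7, 91.97 and 93.0 in NB4 RBFOX2 KD and at 88.5 to 92.02 in K562, so the lines overlapped there. Its regions called higher in NB4 did not pass there, at score differences of 0.35 and 0.53 (limma adjusted p = 0.141 and 0.124). The peak of a fusion transcript cannot be told apart from that of the unfused gene.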

How the data were processed

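MeRIP-seq IP libraries of rRNA-depleted caRNA were used as the peak lists that the authors deposited, 1 per library and not pooled. Per the submitters' processing notes, reads were handled with Trimmomatic 0.39, HISAT2 2.1.0, SAMtools 1.9 and MACS2 on hg38. Per the study's methods, MACS2 was run per strand without a model, with an extension of 150 bases, up to 5 duplicates, a genome size of 1.3e8 and q under 0.01, and GENCODE version 29. Whether input was the MACS2 background is not given in the sources used here. The deposited columns hold a score, the fold (a ratio) at the summit, the -log10 p-value and the -log10 q-value, and the summit offset in bases.

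Peaks on chromosomes 1 to 22 and X were annotated with GENCODE version 44 in 11 parts, in order of priority: sense promoter, antisense promoter, stop codon (within 200 bases), coding exon, 5′ UTR, 3′ UTR, noncoding exon, sense intron, antisense to a gene, downstream (within 5000 bases) and intergenic. A summit counted for the gene on its strand, protein-coding before lncRNA before others, then the shorter. The percentile of column 9 within a list set strength, and the best peak stood for a region or gene. Effective reads were solved from fold, p-value and background, and cover counting error only. Libraries were compared by exact permutation tests (two-sided) and shared regions by limma 3.58.1 in R 4.3.3, with trend. A shared region was measured outside where it had a peak in all 7 libraries. Python 3.11.15, numpy 2.4.6, pandas 2.3.3, scipy 1.17.1 and pysam 0.24.0 were used. The limma step was tested on simulated data with 200 changed regions.

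Named genes were the 12 strongest repeated genes, the 8 strongest regions and the 10 shared regions of smallest p per line or direction, 1 per gene, the genes of 15 lists (349 genes) found in 1 line, and the genes the study follows. The members and lists were chosen with earlier results of these data known. Input libraries are not analysed here, and some listed genes are counted but not reported here by name.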

Additional observations from a re-analysis of the deposited data

Results flagged for a closer look

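Peaks outside chromosomes 1 to 22 and X were in no comparison and were 3.90% to 5.401% of each list. Alternate contigs held 1240 and 1246 peaks in K562 Control and 1487, 1370 and 1245 in NB4 Control. Other contigs held 268 and 262 peaks in K562 Control and 92, 97 and 109 in NB4 Control, without overlap between the lines. Mitochondrial peaks numbered 8 in NB4 Control 1 and 5 in NB4 Control 3. These peaks were picked out because they carry signal in data that the comparisons did not use, no control level exists for them, and they are given as values.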

How the results depend on the processing

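Matching the lists in depth gave 12751 K562, 6382 NB4 and 11596 shared regions. With a scaled -log10 p of at least 20 required in addition, called the strict setting here and chosen after seeing the data, they numbered 8406, 4182 and 7583. Requiring a peak in at least 2 libraries of the line gave 10741 NB4 regions. Leaving out each library in turn gave 13409 to 20359 K562 regions, the highest without K562 Control 1, 905 to 1712 regions higher in NB4 by rank and 504 to 1733 higher in K562, the lowest without K562 Control 2 (1042 and 587 without K562 Control 1). Recovery in outside libraries differed by 79.8 and -87.7 points with RBFOX2 KD libraries alone (exact permutation p = 0.1, the smallest possible), and by 71.0 to 76.1 and -80.3 to -72.2 points without each library in turn (exact permutation p = 0.0667 to 0.1). Differences in share turned for antisense summits, at 0.0830 points with lists of equal size and 0.0149 in the strict setting (-0.582 with depth matching alone), and for downstream summits, at 0.102 with lists of equal size and -0.0702 to 0.00726 without each library. Antisense promoters ranged from -0.0996 to 0.263 points without each library. The cause was not tested. The TGFB1 promoter region, at 0.698 by rank, turned to -0.47 (limma adjusted p = 0.144) with log2 fold in place of rank. The other 229 alternative values of the main results were judged the same as the main value. Counts were judged by the size of their change, and tested values by direction and side of the 0.05 threshold. Exact tests of 3 against 2 libraries cannot go below p = 0.1, so for them only the direction could change. Of 100 named genes found in 1 line, 33 lost that class in at least 1 setting, 25 of them in the strict setting and 1 with depth matching alone. The 20 named shared regions kept their call in all 180 alternative values. With a replicate block, 1795 and 1683 shared regions were called higher in NB4 and in K562. The promoter share then differed by 3.72 points and the intergenic share by -3.27, and no share, motif excess or list size changed its direction. No p-value was computed for these in that setting. Same-numbered libraries deviated together little (r = 0.0435 and 0.0266), and only 2 numbers were shared, so the numbers were not taken to pair them. The difference in peak number has no value with lists of equal size, where it is 0 by construction.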
